A study of Mus musculus with 6 samples.

Results

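The Reg (regenerating) genes encode small secreted C-type lectins of the gut and pancreas. The 5 members Reg1, Reg3a, Reg3b, Reg3g and Reg4 were taken by mouse symbol from a table of 21878 genes, and all 5 were found. Of the other mouse Reg genes, Reg3d had 1 read over the 3 PEGPH20 libraries and 1 over the 3 vehicle libraries, and Reg2 was not analysed here.

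Transcript ends were sequenced from 6 tumors of the small intestine of Prkcif/fPrkczf/f;Villin-Cre mice, whose floxed genes for both atypical protein kinase C isoforms are targeted by a Cre that is active in the intestinal epithelium. Treated mice (3 libraries, replicates 4 to 6) received PEGPH20, a pegylated hyaluronidase that degrades hyaluronan, at 0.0375 mg/kg in 2 doses per week for 3 weeks from 11 weeks of age. Control mice (3 libraries, replicates 1 to 3) received vehicle, and both groups are labelled with an age of 14 weeks. Both groups carry the same targeted alleles, no group with intact alleles is compared here, and the labels do not state whether each tumor came from its own mouse, and a p-value here is set only by how far these samples spread, which may be technical.

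Reg3b and Reg3g are antimicrobial lectins that enterocytes and Paneth cells release into the lumen and that keep bacteria away from the intestinal surface. Reg3g binds peptidoglycan and acts on Gram-positive bacteria. Their transcription depends on microbial sensing through MyD88 and on interleukin 22, which signals through STAT3 in epithelial cells. Reg4 is known from goblet and enteroendocrine cells and from deep crypt secretory cells of the colon, and Reg1 from pancreas and regenerating epithelium.

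Libraries held 2197222 to 2832876 reads in PEGPH20 tumors and 2075588 to 2616142 in vehicle tumors, so 1 read was worth 0.353 to 0.482 CPM, the count scaled to a library of 1000000 reads. PEGPH20 replicate 5 stood apart from the rest across genes (Pearson's r of log2(CPM + 1) from 0.937 to 0.958 with the others, against 0.971 to 0.984 among the others), and values without it are given beside the results that it moved most. As a check of the tissue label, all 11 general and intestinal epithelial genes looked up, such as Epcam, Cdh1, Vil1 and Cdx2, were abundant enough to test. Their summed level was 6198 to 8654 CPM in PEGPH20 and 8447 to 9633 CPM in vehicle tumors. In bulk tissue, fewer cells of a type and less RNA per cell cannot be told apart.

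On GRCm38, 4 of the 5 members lie in 1 cluster on chromosome 6, and Reg4 stands alone on chromosome 3. The cluster of 6 Reg genes spans 98.2 kb (chr6:78370657-78468872), with 0 other annotated genes inside it. Reg3b (ENSMUSG00000071356) lies at chr6:78370657-78373466, Reg3a (ENSMUSG00000079516) at chr6:78380709-78383827 and Reg1 (ENSMUSG00000059654) at chr6:78422711-78428667, all on the plus strand. Reg3g (ENSMUSG00000030017) lies on the minus strand at chr6:78466269-78468872. Reg4 (ENSMUSG00000027876) lies on the plus strand at chr3:98222156-98236748.

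The promoters of the 3 Reg3 members are shown because Reg3b and Reg3g, the abundant pair of the family, have closely related promoters but gave different values between the groups. Each is the RefSeq window on GRCm38.p6 from 250 bases before to 50 bases after the gene's RefSeq start, which can differ from the gene ends given above, 5′ to 3′ on the gene's strand. All 5 members were found in that table. Capitals mark matches to 3 motifs, which are the TATA box TATAAA on the gene's strand, the STAT motif TTCNNNGAA and the E-box CACCTG, and no matches overlap. The windows are chr6:78468825-78469124 (minus strand) for Reg3g, chr6:78370635-78370934 (plus strand) for Reg3b and chr6:78380459-78380758 (plus strand) for Reg3a.
Reg3g: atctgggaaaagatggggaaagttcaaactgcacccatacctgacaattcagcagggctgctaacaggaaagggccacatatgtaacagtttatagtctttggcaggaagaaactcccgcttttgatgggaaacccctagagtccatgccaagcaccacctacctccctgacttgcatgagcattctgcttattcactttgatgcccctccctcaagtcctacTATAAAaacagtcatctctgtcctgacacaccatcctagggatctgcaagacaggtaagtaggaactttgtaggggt
Reg3b: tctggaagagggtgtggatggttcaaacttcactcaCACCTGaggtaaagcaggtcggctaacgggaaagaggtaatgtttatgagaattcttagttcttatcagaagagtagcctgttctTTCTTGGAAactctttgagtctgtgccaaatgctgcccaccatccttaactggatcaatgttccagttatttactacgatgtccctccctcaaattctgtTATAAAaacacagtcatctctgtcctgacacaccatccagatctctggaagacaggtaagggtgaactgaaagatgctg
Reg3a: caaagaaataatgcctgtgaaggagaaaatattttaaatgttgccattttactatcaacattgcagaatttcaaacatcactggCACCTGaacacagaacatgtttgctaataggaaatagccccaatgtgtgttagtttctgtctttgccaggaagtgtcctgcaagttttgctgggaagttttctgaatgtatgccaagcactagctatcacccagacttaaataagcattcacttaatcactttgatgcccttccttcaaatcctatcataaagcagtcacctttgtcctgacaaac

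The promoters of Reg3g and Reg3b shared more bases than those of any other pair of members, with 207 identical of 296 aligned (69.9%). They share an exact run of 29 bases, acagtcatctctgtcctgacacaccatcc, which begins 20 bases before the start of Reg3b. Reg3g and Reg3a had 179 identical of 243 aligned bases (73.7%). A TATA box on the gene's strand began 27 bases before the start of Reg3g, 29 before that of Reg3b and 30 before that of Reg1, and was not in the windows of Reg3a and Reg4.

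A STAT match, TTCTTGGAA, was in the Reg3b window alone among the members, from 129 to 121 bases before the start. The E-box was in the windows of Reg3b, Reg3a and Reg4. Over 32851 promoter windows of the same length, searched on both strands, 8.30% held the STAT motif, 13.6% the TATA box and 20.2% the E-box. A match is a run of letters, not a shown binding site, and its absence says only that these letters are not in this window.

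**Figure D1:**
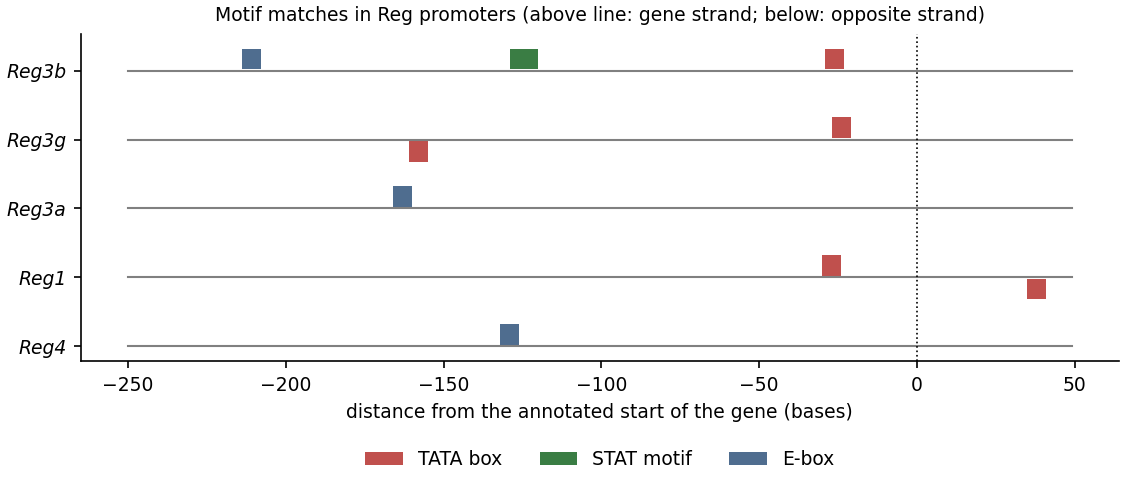
Motif matches in the promoter windows of the 5 members, by distance in bases from the annotated start of each gene (dotted line); boxes above a line are on the gene's strand and boxes below it on the opposite strand. Reg3b, Reg3g and Reg1 have a TATA box 27 to 30 bases before the start, and the STAT match is in Reg3b.

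Because the members are related, reads could be divided wrongly between them if their 3' ends were identical over the length of a read. The transcripts of Reg3b and Reg3g (783 and 771 bases) had 74.4% identity, and their longest shared run was 35 bases, or 17 bases within the last 300. Over all pairs of members the longest shared run in the last 300 bases was 19 bases, between Reg1 and Reg3a. A read of 75 bases is longer than any of these runs. No source used here says how reads that match several genes were assigned.

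The family was dominated by Reg3b, one of the most abundant transcripts of these tumors, at rank 11 to 12 in PEGPH20 and 10 to 11 in vehicle libraries. Together the 5 members took 0.764%, 0.789% and 0.665% of reads in PEGPH20 replicates 4, 5 and 6, and 0.555%, 0.658% and 0.593% in vehicle replicates 1, 2 and 3. Reg3b alone gave 71.3% to 77.1% of these reads in PEGPH20 and 77.7% to 81.8% in vehicle tumors. Since 3' libraries take tags from the end of a transcript and not along its length, levels of different members are compared here in CPM without division by length. In mean level over all vehicle libraries the order was Reg3b, Reg3g, Reg4, Reg1, Reg3a, in which Reg3g and Reg4 overlap within their spread (592.6 to 744 CPM and 419 to 609 CPM) and so do Reg1 and Reg3a. The order by mean was the same in PEGPH20 tumors, but the place of Reg1 above Reg3a rested on replicate 6, without which the PEGPH20 means were 20.6 CPM for Reg1 and 46.5 CPM for Reg3a.

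**Figure D2:**
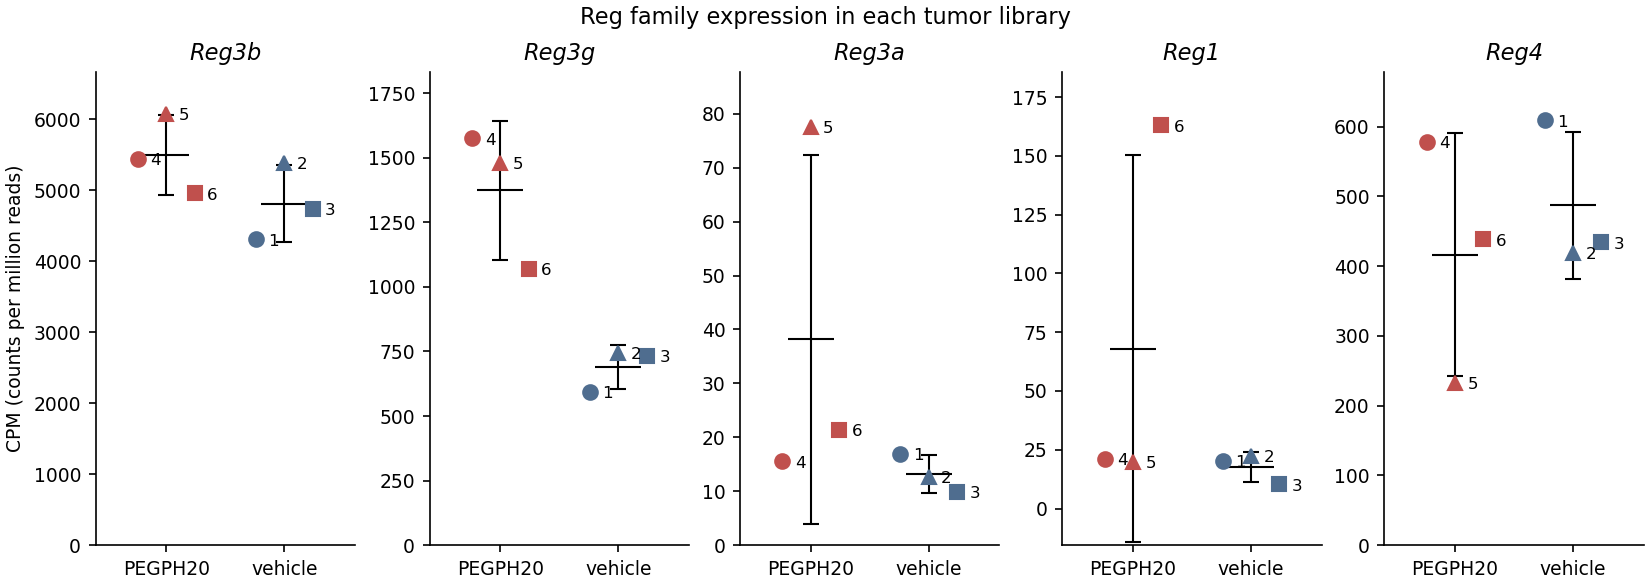
CPM of each Reg gene in each library, with PEGPH20 (red) left of vehicle (blue); numbers give the replicate, the wide black line is the group mean and the bar ± 1 SD (n = 3), which passes below 0 for Reg1. Each panel has its own axis. The 3 PEGPH20 libraries lie between 1069 and 1575 CPM for Reg3g, above all vehicle libraries, while Reg3a and Reg1 are each high in 1 library.

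None of the 5 members passed limma's test over all 11389 genes tested (adjusted p from 0.122 to 0.635), where the share of all genes that passed was 0.079% (0.0263% higher and 0.0527% lower). At an unadjusted p under 0.05 there was 1 member, Reg3g, against 18% of all genes, or 6.52% counting those that were higher. After adjustment, edgeR and limma-voom on the recovered reads called 0 members, and DESeq2 called 1, Reg3g, where it called 2.43% of all genes (1.12% higher). Over all genes edgeR called 0.0878% (0.0351% higher). At an unadjusted p under 0.05 edgeR had 3 members, Reg3g, Reg1 and Reg3a, and 2209 of all 11389 genes (1119 higher). DESeq2 had the same 3 members and 1651 of all genes (898 higher). limma-voom had 1 member, Reg3g, and 2126 of all genes (974 higher). The fitted difference was above 0 for 4 members and below 0 for Reg4, and 40.2% of all genes were above 0. All 5 members passed the filter on low counts.

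Reg3g had 1575, 1479 and 1069 CPM in PEGPH20 replicates 4, 5 and 6, against 593, 744 and 734 CPM in vehicle replicates 1, 2 and 3. The groups did not overlap, and Reg3g was the only member of which this was true. Of all genes, 9.71% lay higher in every PEGPH20 than in every vehicle library, and 27.3% did not overlap in either direction. The means were 1374 ± 269 CPM in PEGPH20 and 690 ± 84.6 CPM in vehicle tumors (SD, n = 3 each), a ratio of 1.99.

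On the log2(CPM + 1) scale Reg3g differed by 0.98 (SE 0.18, 95% confidence interval 0.55 to 1.41), which did not pass the limma test (adjusted p = 0.122, rank 76 of 11389 by p). The call depended on 1 library and on the tool. Without PEGPH20 replicate 5 the difference was 0.92 and passed (limma adjusted p = 0.0180), as 2.98% of all genes then did. DESeq2 on all 6 libraries gave 1.11 (adjusted p = 0.00108).

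Reg3b, an antimicrobial lectin reported to act on Gram-negative bacteria, had 5446, 6079 and 4957 CPM in PEGPH20 replicates 4, 5 and 6. Vehicle replicates 1, 2 and 3 had 4310, 5386 and 4741 CPM. The ranges overlapped, with means of 5494 ± 563 CPM in PEGPH20 and 4812 ± 542 CPM in vehicle tumors (SD, n = 3 each). The log2 difference was 0.19 (95% confidence interval -0.20 to 0.59, limma adjusted p = 0.555), so a difference above 0.59 lay outside this interval. The upper limit depended on the processing. It was 0.75 with another scaling of the libraries (RLE) and 0.78 without vehicle replicate 2.

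**Figure D3:**
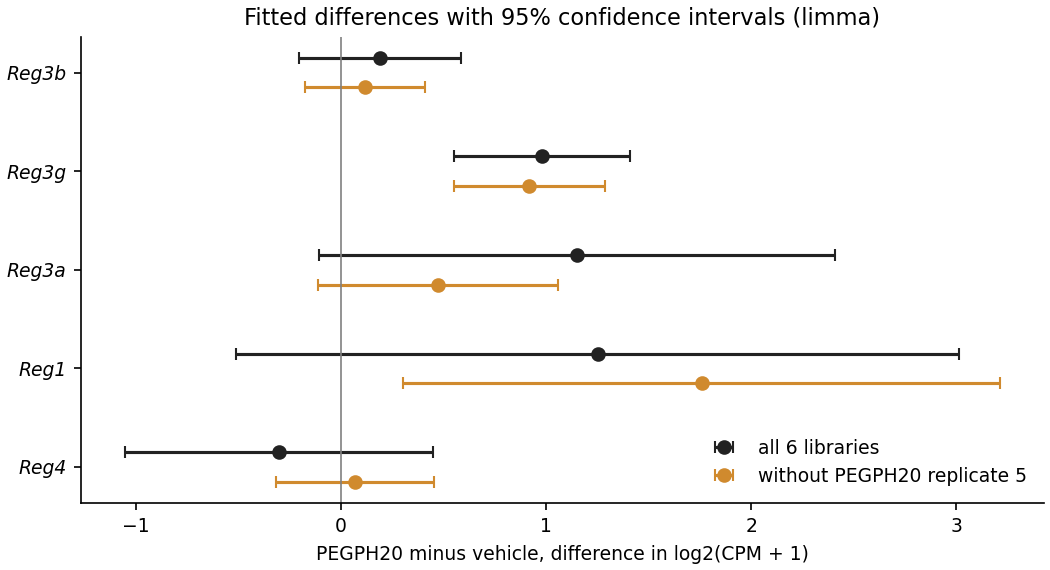
Fitted difference of each member, PEGPH20 minus vehicle, in log2(CPM + 1), with its 95% confidence interval, which is not adjusted for the number of genes; black, all 6 libraries, and orange, without PEGPH20 replicate 5. Reg3g is near 0.98 and 0.92 with narrow intervals, Reg3b is near 0, and Reg3a, Reg1 and Reg4 move when the library is left out.

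The balance between both abundant members was therefore compared within each library, which removes any scaling by library size. Reg3g made up 22.4%, 19.6% and 17.7% of the reads of Reg3b and Reg3g together in PEGPH20 replicates 4, 5 and 6. The share was 12.1%, 12.1% and 13.4% in vehicle replicates 1, 2 and 3. Groups did not overlap, and the mean share was 19.9 ± 2.36% in PEGPH20 against 12.5 ± 0.746% in vehicle tumors (SD, n = 3 each). Since Reg3g itself did not overlap between the groups and Reg3b did, the share is not independent of the Reg3g values. How often such a share of other gene pairs separates the groups was not tested. The levels of 27.3% of all genes did not overlap, in either direction.

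The difference of 7.37 percentage points gave p = 0.1 in a two-sided exact permutation test, the smallest value that 3 against 3 libraries allow. In other terms, Reg3b transcripts outnumbered those of Reg3g by 3.46 to 4.64 times in PEGPH20 and by 6.46 to 7.27 times in vehicle libraries.

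**Figure D4:**
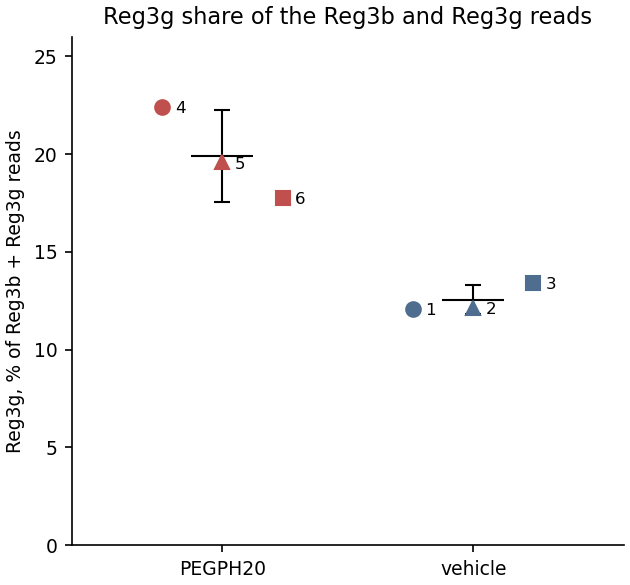
Reg3g reads as a percentage of Reg3b and Reg3g reads in each library, PEGPH20 left of vehicle; numbers give the replicate, the wide line is the mean and the bar ± 1 SD (n = 3). The PEGPH20 libraries lie at 17.7% to 22.4% and the vehicle libraries at 12.1% to 13.4%.

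Reg3a, whose human namesake REG3A is a peptidoglycan-binding lectin, was scarce and was high in 1 library. It had 15.5, 77.5 and 21.4 CPM in PEGPH20 replicates 4, 5 and 6 (44, 186 and 47 reads), and 16.9, 12.6 and 9.94 CPM in vehicle replicates 1, 2 and 3 (35, 33 and 26 reads). PEGPH20 replicate 4 lay within the vehicle range and replicate 5 was the highest of all 6 libraries. The log2 difference was 1.15 (95% confidence interval -0.11 to 2.41, limma adjusted p = 0.309), and without replicate 5 it was 0.47 (adjusted p = 0.377).

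Reg1 was likewise scarce in 5 libraries and high in another. It had 60, 48 and 358 reads in PEGPH20 replicates 4, 5 and 6, and 42, 59 and 27 reads in vehicle replicates 1, 2 and 3. Replicate 6 was at 163 CPM, while vehicle libraries were at 20.2, 22.6 and 10.3 CPM. In CPM, PEGPH20 replicates 4 and 5 lay within the vehicle range. The log2 difference was 1.25 (95% confidence interval -0.51 to 3.01, limma adjusted p = 0.400), and without replicate 6 it was 0.28 (adjusted p = 0.689). Without replicate 5 it was 1.76 (adjusted p = 0.183).

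The library with the high Reg1 value was thus not the one with the high Reg3a value. Reg1 and Reg3a are known as products of pancreatic acinar cells as well, so acinar genes were looked at beside them. Of 20 listed acinar genes, 13 are in the table, and Prss2 and Pnlip are among those without a row. Only 4 were abundant enough to test, Zg16, Clps, Rnase1 and Cela1, and they are set apart after their values were seen. Few reads in the other 9 thus follow in part from this choice. These 9 had 18 reads in all PEGPH20 and 9 in all vehicle libraries, with at most 5 reads of any 1 gene in a library. Of these, Ctrl, a chymotrypsin-like protease gene, had 9 reads in all PEGPH20 and 0 in all vehicle libraries, and Cpb1, a carboxypeptidase gene, had 4 reads in each group. Of the genes set apart, the colipase gene Clps had 9.53, 55.0 and 7.28 CPM in PEGPH20 replicates 4, 5 and 6 and 18.3, 9.94 and 4.59 CPM in vehicle replicates 1, 2 and 3. The ribonuclease gene Rnase1 had 2.82, 16.7 and 3.19 CPM in PEGPH20 replicates 4, 5 and 6 and 4.82, 5.35 and 5.35 CPM in vehicle replicates 1, 2 and 3. Both were highest in replicate 5, as Reg3a was. Cela1 went the other way and was lowest in replicate 5. It had 26.5, 21.3 and 36.9 CPM in PEGPH20 replicates 4, 5 and 6. In vehicle replicates 1, 2 and 3 it had 41.0, 45.5 and 37.1 CPM. The part of acinar cells in the Reg1 and Reg3a values was not tested. The 13 acinar genes in the table were together at 593 to 1395 CPM in PEGPH20 and 642 to 814 CPM in vehicle libraries. Of this, 544 to 1299 CPM and 594 to 749 CPM was Zg16, which goblet cells also make.

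Reg4 had 579, 233 and 438 CPM in PEGPH20 replicates 4, 5 and 6, against 609, 419 and 434 CPM in vehicle replicates 1, 2 and 3. PEGPH20 replicate 5 had the lowest value and the other 2 PEGPH20 libraries lay within the vehicle range. The means were 417 ± 174 CPM in PEGPH20 and 487 ± 106 CPM in vehicle tumors (SD, n = 3 each). The log2 difference was -0.30 (95% confidence interval -1.05 to 0.45, limma adjusted p = 0.635), and without replicate 5 it was 0.07 (adjusted p = 0.878).

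Markers of Paneth cells and enterocytes, which make Reg3 lectins, stood apart in PEGPH20 replicate 5. Levels of 17 Paneth genes summed to 1381, 6140 and 812 CPM in PEGPH20 replicates 4, 5 and 6 and to 662 to 860 CPM in vehicle libraries. Those of 22 enterocyte genes summed to 8717, 25721 and 8818 CPM in PEGPH20 replicates 4, 5 and 6 and to 5530 to 10777 CPM in vehicle libraries. Both were highest in replicate 5, the library with the high Reg3a and the low Reg4 value.

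Reg3g was highest in PEGPH20 replicate 4, where the enterocyte sum lay within the vehicle range and the Paneth sum, at 1381 CPM, lay above it. In replicate 6 Reg3g was above every vehicle library, while the Paneth sum, at 812 CPM, and the enterocyte sum lay within the vehicle ranges. The sum of the goblet list was 6003, 4744 and 3531 CPM in PEGPH20 replicates 4, 5 and 6, the same order as Reg3g. It was 3998 to 4313 CPM in vehicle libraries, so in replicate 6 it lay below the vehicle range. By gene, 10 of 13 tested Paneth genes were higher and 3 lower (median log2 difference 1.79, or 0.47 without replicate 5), and 21 of 22 enterocyte genes were higher (median 0.81, or 0.33). The median over all genes was -0.09. Single genes could differ from the sums. In every PEGPH20 library, 5 Paneth genes lay above all vehicle libraries and 1 below, and 5 enterocyte genes above and 0 below. Of all genes, 9.71% lay above and 17.6% below. The part of any of these cell types in the Reg3g value was not tested.

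Among the leading Paneth genes by p, Ang4, an antimicrobial ribonuclease, had 19.8, 141.7 and 8.19 CPM in PEGPH20 replicates 4, 5 and 6 and 3.37 to 3.82 CPM in vehicle libraries (log2 difference 2.69, or 1.57 without replicate 5). The defensin gene Defa17 had 79.4, 606 and 46.4 CPM in PEGPH20 replicates 4, 5 and 6 and 18.0 to 34.7 CPM in vehicle libraries (2.24, or 1.14 without replicate 5). Both were thus far higher in replicate 5 than in the other libraries. Nupr1 was at 20.3 ± 6.88 CPM in PEGPH20 and 35.1 ± 1.06 CPM in vehicle tumors (SD, n = 3 each). None of the 13 passed limma over all genes (5 higher and 1 lower at an unadjusted p under 0.05), edgeR called 0 and DESeq2 called 1. Among enterocyte genes, the protease gene Mep1b was at 491 ± 192 CPM in PEGPH20 and 154 ± 14.4 CPM in vehicle tumors, the peptidase gene Dpp4 at 223 ± 214 and 51.8 ± 7.08 CPM and the transcription factor gene Maf at 543 ± 371 and 193 ± 7.34 CPM (SD, n = 3 each). They too had 0 calls by limma and edgeR (6 higher at an unadjusted p under 0.05), and DESeq2 called 4. Without PEGPH20 replicate 5, limma called Mep1b (log2 difference 1.30, adjusted p = 0.000395) and Maf (0.76, adjusted p = 0.0102), both of which rose. Defensin genes have near-identical copies, so the value of Defa17 is uncertain.

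**Figure D5:**
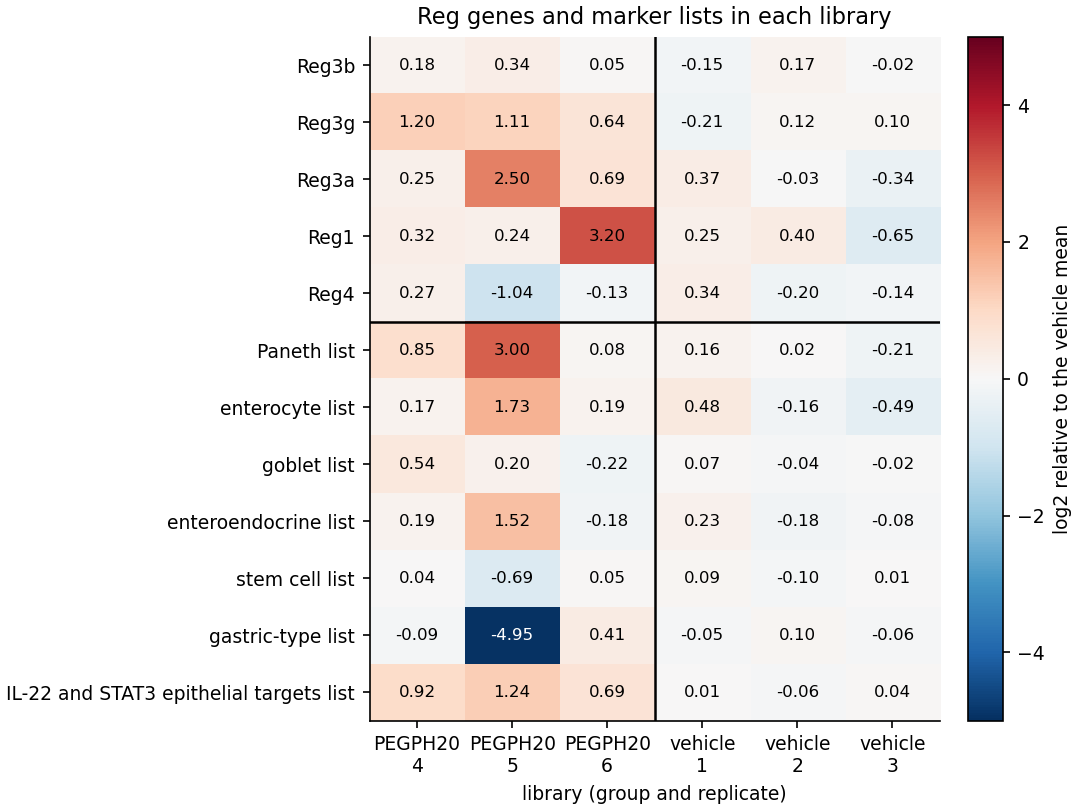
Each Reg gene as log2(CPM + 1) minus its vehicle mean (top 5 lines), and 7 marker lists as log2 of their summed CPM over the vehicle mean, in each library; PEGPH20 libraries are left of the vertical line. Reg3g is above 0 in all 3 PEGPH20 libraries (lowest 0.64 in replicate 6), Reg3a and the Paneth list are highest in replicate 5, and Reg1 is high in replicate 6.

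Reg4 was set beside the lists of the secretory and gastric-type cells that express it. The 15 goblet genes summed to 6003, 4744 and 3531 CPM in PEGPH20 replicates 4, 5 and 6 and to 3998 to 4313 CPM in vehicle libraries, with 9 higher and 6 lower (median 0.07). The 16 enteroendocrine genes summed to 156, 391 and 121 CPM in PEGPH20 replicates 4, 5 and 6 and to 120 to 159 CPM in vehicle libraries. In replicate 5 the enteroendocrine sum was thus the highest and Reg4 the lowest of all 6 libraries.

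The 11 gastric-type genes in the table summed to 495, 17.1 and 698 CPM in PEGPH20 replicates 4, 5 and 6 and to 506 to 565 CPM in vehicle libraries. Both they and Reg4 were lowest in replicate 5. Among them Anxa10, an annexin gene used as a marker of serrated tumors, had 319, 11.3 and 465 CPM in PEGPH20 replicates 4, 5 and 6 and 206, 348 and 318 CPM in vehicle replicates 1, 2 and 3. Tff1 and Vsig1 were listed at 0 in replicate 5. Without that library Tff1 fell (log2 difference -1.98, limma adjusted p = 0.00133). None of the tested goblet, enteroendocrine or gastric-type genes passed limma or edgeR over all genes (3, 0 and 0 higher and 1, 0 and 1 lower at an unadjusted p under 0.05). DESeq2 called 1 goblet gene and 0 of the others. Without replicate 5 the goblet gene Clca1 rose (0.78, limma adjusted p = 0.0457), and the medians were 0.15 for goblet, -0.00 for enteroendocrine and 0.37 for gastric-type genes, against 0.07, 0.35 and -1.02 with all libraries.

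Stem cell genes had 3 of 11 higher and 8 lower (median -0.18, or 0.04 without PEGPH20 replicate 5), with 0 calls by limma, edgeR or DESeq2 and 2 higher at an unadjusted p under 0.05. Their sum was 717, 431 and 720 CPM in PEGPH20 replicates 4, 5 and 6 and 650 to 742 CPM in vehicle libraries, again with replicate 5 the lowest. Axin2, a target of Wnt signalling, had 26.1, 35.8 and 19.6 CPM in PEGPH20 replicates 4, 5 and 6 and 9.15, 18.0 and 15.7 CPM in vehicle replicates 1, 2 and 3 (log2 difference 0.89, limma adjusted p = 0.206). Smoc2 went the other way, with 39.2, 31.7 and 36.9 CPM in PEGPH20 replicates 4, 5 and 6. In vehicle replicates 1, 2 and 3 it had 52.0, 44.3 and 40.5 CPM (-0.34, limma adjusted p = 0.321).

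Transcripts of the pathway that induces Reg3 genes did not move in 1 direction. Of 30 genes of interleukin 22, related cytokines, their receptors, JAK kinases, STAT3 and microbial sensing, 19 were tested, of which 10 were higher and 9 lower (median 0.01). None passed limma or edgeR (1 higher and 4 lower at an unadjusted p under 0.05), and DESeq2 called 1 lower. Il22 had 1 read in all PEGPH20 and 0 in all vehicle libraries, and Il17a 2 and 0. Stat3 was at 204 CPM in PEGPH20 and 202 CPM in vehicle tumors, Myd88 at 34.5 and 34.4 CPM, and Socs3, a feedback inhibitor that STAT3 induces, at 37.0 and 35.8 CPM.

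Its members with the smallest p were receptor genes. Il6st, the shared receptor chain gp130, was at 47.4 ± 6.58 CPM in PEGPH20 and 70.8 ± 1.13 CPM in vehicle tumors (SD, n = 3 each; log2 difference -0.58, limma adjusted p = 0.157). Il11ra1, the interleukin 11 receptor, was at 7.53 ± 1.63 and 14.1 ± 0.773 CPM, and the interleukin 1 receptor gene Il1r1 at 20.5 ± 11.0 and 53.2 ± 7.08 CPM. Without PEGPH20 replicate 5, Il1r1 fell (-0.96, limma adjusted p = 0.0142). Stromal cells also express these receptors, and all 11 tested fibroblast genes were lower (median -1.23). The fibroblast sum was 658 to 1727 CPM in PEGPH20 and 3152 to 3255 CPM in vehicle libraries, and without PEGPH20 replicate 5 limma called 6 of the 11 lower. The part of stromal cells in the receptor values was not tested.

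The known epithelial targets of interleukin 22 and STAT3 were split by gene. Of 25 listed, 19 were tested, with 10 higher and 9 lower (median 0.07), 0 past limma and edgeR (5 higher and 6 lower at an unadjusted p under 0.05), and 3 higher and 3 lower by DESeq2. The lower genes include S100a8 (-2.33) and S100a9 (-2.09), which are also in the neutrophil list. The 23 targets in the table summed to 3692 to 5414.5 CPM in PEGPH20 and 2204 to 2358 CPM in vehicle libraries. Abundant genes such as Muc13 weigh most in this sum. Pigr, the receptor that carries IgA across the epithelium, had 969.7, 2269 and 1009 CPM in PEGPH20 replicates 4, 5 and 6. In vehicle replicates 1, 2 and 3 it had 323, 256 and 134 CPM, all below the PEGPH20 libraries (log2 difference 2.54, limma adjusted p = 0.0905). The membrane mucin gene Muc13 had 1584, 2355 and 1396 CPM in PEGPH20 replicates 4, 5 and 6 and 662, 836 and 899.8 CPM in vehicle replicates 1, 2 and 3 (log2 difference 1.13, limma adjusted p = 0.135).

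In the other direction, Lcn2, the siderophore-binding lipocalin that is often induced together with Reg3 genes, had 5.65, 1.67 and 0.910 CPM in PEGPH20 replicates 4, 5 and 6. It had 31.8, 11.9 and 20.6 CPM in vehicle replicates 1, 2 and 3 (log2 difference -2.69, limma adjusted p = 0.133). Without PEGPH20 replicate 5, 4 of these targets rose (Pigr, Muc13 and the oxidase genes Duox2 and Duoxa2) and 3 fell (Lcn2, Saa3 and Sprr1a), where 0.948% of all genes rose and 2.03% fell. Neutrophils also make Lcn2, and all 7 tested neutrophil genes, S100a8 and S100a9 among them, were lower. They summed to 12.5 to 78.4 CPM in PEGPH20 and 103 to 238 CPM in vehicle libraries. The part of neutrophils in the Lcn2, S100a8 and S100a9 values was not tested.

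Extl3, a glycosyltransferase described as a receptor for Reg proteins, was at a low level of 9.88, 5.83 and 8.19 CPM in PEGPH20 replicates 4, 5 and 6 and 8.67, 8.41 and 8.41 CPM in vehicle replicates 1, 2 and 3. It did not pass (log2 difference -0.11, limma adjusted p = 0.829). With the receptor and signalling partner genes listed beside it, such as Egfr and Fgfr2, 5 of 5 tested were lower (median -0.58, or -0.35 without PEGPH20 replicate 5). There were 0 calls by limma, edgeR or DESeq2 and 1, Il6st, at an unadjusted p under 0.05 by limma. Without replicate 5 Extl3 had the other sign (0.07), and Egfr was at -0.35 in place of -0.96.

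Other antimicrobial and lectin genes of the gut, from a list without Reg genes, had 8 of 13 higher and 5 lower (median 0.17). Lgals2, a galectin of enterocytes, was at 547 ± 39.2 CPM in PEGPH20 and 384 ± 23.4 CPM in vehicle tumors (SD, n = 3 each; log2 difference 0.51, limma adjusted p = 0.147). The galectin gene Lgals3 was at 568 ± 330 CPM in PEGPH20 and 1204 ± 198 CPM in vehicle tumors (-1.32, limma adjusted p = 0.230). Without PEGPH20 replicate 5 Lgals2 rose (0.49, limma adjusted p = 0.0429) and Lgals3 fell (-0.67, limma adjusted p = 0.0381). The list had 0 calls by limma and edgeR, 1 by DESeq2, and 3 higher and 2 lower at an unadjusted p under 0.05.

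Of the remaining lists, 5 of 11 general epithelial genes were higher and 6 lower (median -0.11). Epcam was higher in every PEGPH20 than in every vehicle library (0.33). The keratin genes Krt8 (-0.69), Krt18 (-1.30) and Krt19 (-0.82) were lower in every PEGPH20 library. Of all genes, 9.71% lay above and 17.6% below in this way. The limma adjusted p was 0.275 to 0.309 over the 4 genes. Without PEGPH20 replicate 5 the differences were 0.37 for Epcam, -0.31 for Krt8, -0.50 for Krt18 and -0.32 for Krt19. All 7 tested genes of the B and plasma cell list were higher (median 0.68), led by Jchain at 2963 ± 387 CPM in PEGPH20 and 1804 ± 175 CPM in vehicle tumors (SD, n = 3 each), and Jchain rose without PEGPH20 replicate 5 (0.61, limma adjusted p = 0.0233). The B cell genes Cd79b (14 reads in all PEGPH20 and 23 in all vehicle libraries) and Ms4a1 (3 and 4) were not tested. Nor was Tnfrsf17 (36 and 14). All 5 tested T and NK cell genes were higher (median 0.93), but without PEGPH20 replicate 5 the median was 0.10. Macrophage genes had 3 of 8 higher (median -0.10, or 0.07 without it) and pancreatic acinar genes 3 of 4 (median 0.24, or -0.28 without it). These 4 acinar genes are the ones set apart above. All 8 endothelial genes were lower (median -0.94), and 3 of them passed limma without replicate 5. Over all 183 tested genes of these lists, 0 passed limma or edgeR, 1 passed limma-voom, and DESeq2 called 11 higher and 13 lower. At an unadjusted p under 0.05 limma had 30 higher and 36 lower. Of all genes, DESeq2 called 277 (2.43%), 128 higher and 149 lower. Over all genes limma had 2050 (18%) at an unadjusted p under 0.05, 743 higher and 1307 lower.

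The genes whose profile over the 6 libraries was most like that of a member were found among genes with a mean log2(CPM + 1) of at least 5, by the root mean square distance between centred log2 profiles. For Reg3g the nearest was Clca1, a secreted goblet cell protein, at a distance of 0.08 where the median over genes was 0.59. Clca1 had 663, 710 and 454 CPM in PEGPH20 replicates 4, 5 and 6 and 264, 355 and 349 CPM in vehicle replicates 1, 2 and 3. The next were the mitochondrial methionine tRNA mt-Tm (0.15) and Usmg5 (0.15), which encodes a subunit associated with ATP synthase.

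For Reg3a the nearest were the enterocyte transcription factor gene Hnf4g (0.17), the small intestinal chemokine gene Ccl25 (0.18) and H2-Q2 (0.19), where the median was 1.01. Ccl25 had 131, 460 and 192 CPM in PEGPH20 replicates 4, 5 and 6 and 126, 99.8 and 85.2 CPM in vehicle replicates 1, 2 and 3, with the same library high as for Reg3a. H2-Q2 belongs to a family of near-identical genes and is uncertain. For Reg4 they were Tfe3 (0.12), the fatty acid synthase gene Fasn (0.14) and the integrin gene Itga1 (0.16), and for Reg3b, which varied little, Fut8 (0.04), Phactr4 (0.05) and Tank (0.05).

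For Reg1 no gene came near. The closest, the brush border alkaline phosphatase gene Alpi, was at 0.80, where the median was 1.24, and Tm4sf20 and Gstm1 followed at 0.88 each. Alpi had 156, 285 and 376 CPM in PEGPH20 replicates 4, 5 and 6 and 206, 185 and 96.7 CPM in vehicle replicates 1, 2 and 3. Between members the smallest distance was 0.42, between Reg3b and Reg3g, and the largest 1.40, between Reg1 and Reg3a. These distances describe 6 libraries of which 1 stood apart, and all genes in a library share its composition.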

How the data were processed

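RNA from 6 tumors was sequenced with 3' tag libraries and single reads of 75 bases, per the labels' protocols. The deposited table holds a signal per gene that the authors scaled to 1000000 counts per library (CPM), and a row of totals in it was left out. GRCm38 is named per the submitters' processing notes, and for aligner, counter, annotation and any use of molecular identifiers the answer is "not given in the sources used here". Gene symbols came from GENCODE M21 (21786 IDs matched, 92 did not). No column lacked a sample.

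The CPM steps gave whole reads for 100% of values (tolerance 1e-06 reads), and counting tests were run on these reads. Counting error and the floor of 3 reads (1.06 to 1.45 CPM) are those of reads, not molecules. Genes were kept by edgeR's filterByExpr (minimum count 10), which left 11389, and log2(CPM + 1) was tested with limma 3.58.1 (PEGPH20 minus vehicle, with a mean-variance trend, Benjamini-Hochberg adjustment over all genes, threshold 0.05). edgeR 4.0.16 called 10 genes on the recovered reads, 4 higher and 6 lower, and DESeq2 1.42.0 and limma-voom were further alternatives, with other scalings, pseudocounts, filters and each library left out. The fit by edgeR without PEGPH20 replicate 5 was chosen after seeing the data. Scripts ran in R 4.3.3 and Python 3.11.15 and were tested on simulated data.

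Members and gene lists were chosen with earlier results of these data known, so they give no independent support. Beside the members, the rule for named genes gives the 3 tested genes of a list with the smallest p and the 3 genes with the profile most like a member's. Not every gene it gives for the marker lists is printed, and other genes of a list are named for their known role or their values, chosen after these were seen. Sequences are from RefSeq (GRCm38.p6), and transcripts from GENCODE M21 were aligned with Biopython 1.88.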

Additional observations from a re-analysis of the deposited data

How the results depend on the processing

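Over 16 alternatives, 3 of which moved Reg3g past the threshold, Reg3g was higher in PEGPH20 tumors throughout, with a log2 difference of 0.87 to 1.15 (adjusted p 0.00108 to 0.421). It passed by DESeq2 (1.11), by limma without PEGPH20 replicate 5 (0.92) and by edgeR without that library (0.95, adjusted p = 0.00721). Leaving out each library in turn gave 0.87 to 1.15, and without each vehicle library the adjusted p was 0.388 to 0.421. Reg3b (0.12 to 0.31), Reg3a (0.47 to 1.73) and Reg1 (0.28 to 2.39) kept their direction and did not pass. Reg4 had the other sign without PEGPH20 replicate 5 (0.068) and by edgeR without that library (0.075), and lay between -0.59 and -0.13 with each of the other libraries left out. The difference in the share of Reg3g reads, 7.37 points, was 6.11 to 8.46 points with each library left out. The exact permutation p was then 0.2, the smallest value possible with a library left out, so it does not measure a weakening. As a log2 difference of Reg3g and Reg3b it was 0.79 (exact permutation p = 0.1).

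The number of genes past the threshold, 9 by limma, was 277 by DESeq2, 18 by limma-voom, 29 with no filter on low values and 421 by edgeR without PEGPH20 replicate 5, and between 1 and 339 with each library left out in turn, the highest being without PEGPH20 replicate 5. Other settings gave 6 to 11. The cause was not tested. No paired analysis was possible because the groups share no replicate numbers. With 3 libraries a group, intervals for Reg3a and Reg1 spanned more than 2 log2 units, and Reg3a rested on 26 to 186 reads a library.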
